A study of Caenorhabditis elegans with 4 samples.

Results

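RNA-dependent RNA polymerases (RdRPs) copy targeted transcripts into small interfering RNAs, in many cases secondary ones. Mutator factors build the perinuclear foci in which part of that amplification takes place. In C. elegans the resulting antisense small RNAs are loaded onto worm-specific Argonautes and silence transposons, foreign sequences and endogenous genes. Loss of mutator factors mobilizes DNA transposons in the germline and blocks RNA interference (RNAi), which gave the family its name. The genes described here are the 4 RdRP genes rrf-1, rrf-2, rrf-3 and ego-1 and the 6 mutator genes mut-2 (also called rde-3), mut-7, mut-14, mut-15, mut-16 and smut-1. They were taken by gene symbol from the deposited count tables, 10 of 46748 genes, and all 10 were among the 15978 genes that passed the filter on low counts.

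Poly(A) RNA was sequenced from whole larvae of the third larval stage, grown on NGM plates at 20°C. Wild type was the Bristol N2 strain. The mutant was the strain GW638, which carries met-2(n4256) and set-25(n5021), mutations in both genes for methyltransferases of histone H3 lysine 9 (H3K9). There were 2 libraries per genotype, wild type rWQS019 and rWQS042, mutant rWQS029 and rWQS045. The labels do not say whether a genotype's libraries are from independent cultures, and the p-values therefore cover only library-to-library spread, possibly technical. The comparison asks which of these genes changed in level in worms mutant for both enzymes.

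Total counts ranged from 22849521 to 56879896 per library. The targeted gene met-2 was lower in both mutant libraries (31.8 and 35.3 CPM, counts per 1000000 counts on the scaled library size) than in both wild type libraries (62.0 and 55.9 CPM), at an adjusted p of 0.342 in edgeR. For set-25 the ranges overlapped (11.4 and 17.6 CPM in wild type, against 11.5 and 11.6 CPM in the mutant), so the counts over whole genes check the labels weakly. The mutant libraries differed from each other in markers of germline and hypodermis. The summed level of 16 germline markers was 656 and 718 CPM in wild type, and 1396 and 2702 CPM in rWQS029 and rWQS045. None of the 16 was at 0 in any library. The summed level of 8 hypodermal markers, most of them cuticle collagens, was 3908 and 4173 CPM in wild type, with a mutant library on either side, at 1526 CPM (rWQS029) and 7319 CPM (rWQS045). Markers of oocytes and the adult summed to 27.2 and 32.0 CPM in wild type and to 74.1 and 131 CPM in rWQS029 and rWQS045, with 7 of 7 tested genes above 0 in edgeR log2 fold change and 1, cbd-1, past DESeq2 (adjusted p = 0.105 without rWQS019), although the yolk gene vit-2 had at most 4 counts in any library. The yolk gene vit-5 had 0 counts in each wild type library, then 3 and 2 in rWQS029 and rWQS045. The yolk gene vit-6 had 6 and 20 counts in wild type, then 15 and 30. Its CPM ranges did not overlap and were higher. In the mutant, most of the oocyte and adult sum was cbd-1, at 7.79 and 13.96 CPM in wild type, then 50.6 and 84.9 CPM. Of the 7 tested genes, 4 had ranges that did not overlap and were higher, and those of rme-2, puf-5 and egg-1 overlapped. These overlapping genes were above both wild type libraries in rWQS045 only. Sperm markers summed to 18.1 and 21.2 CPM in wild type, then 34.7 and 44.1 CPM in rWQS029 and rWQS045. Most of that sum was spe-15, at 12.7 and 16.6 CPM in wild type, then 28.9 and 35.2 CPM. Of the 6 tested genes, 6 were above 0, 2 had ranges that did not overlap and were higher, and 0 passed DESeq2. msp-19 had no count in any library. Neuronal markers were lower in the mutant, at 943 and 784 CPM in wild type, then 693 and 601 CPM. Of the 8, 6 had ranges that did not overlap and were lower, 0 passed DESeq2, and the median edgeR log2 fold change was -0.36. Intestinal markers summed to 5389 and 6055 CPM in wild type, then 8081 and 6026 CPM in rWQS029 and rWQS045. Of these 8, 2 had ranges that were higher and 2 lower, 1 (cpr-1) passed DESeq2 as higher, and the median was 0.17. Body wall muscle markers summed to 11893 and 14696 CPM, then 13133 and 15969 CPM, with a median of 0.05 and 0 past DESeq2. Across the 15978 genes tested, 8239 had an edgeR log2 fold change above 0. Ranges did not overlap and were lower for 21.1% of all genes tested, and higher for 22.1%. DESeq2 called 2.49% of 16562 genes as higher and 0.821% as lower. The part of tissue composition or stage in the results below was not tested. In whole animals, fewer cells of a type and less RNA per cell cannot be told apart.

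All 10 genes were higher in both met-2 set-25 libraries than in both wild type libraries by CPM values scaled with TMM factors, with fold changes that ran from 1.05 for smut-1 to 4.93 for rrf-2 in edgeR. Across all genes tested, 22.1% had ranges that did not overlap and were higher in the mutant, and 21.1% were lower. With library sizes alone the ranges of smut-1 overlapped, and with upper-quartile factors those of mut-16 and smut-1 did. The median log2 fold change of the 10 genes in edgeR was 0.57, against 0.02 over all genes tested. It was 0.30 without rWQS045 and 0.76 without rWQS029. 5 of the 10 had a fold change over 1.5.

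edgeR's quasi-likelihood test called none of the 10 genes (0) at an adjusted p under 0.05, and 0% of all genes tested. At an unadjusted p under 0.05 it gave 1 of the 10 as higher, rrf-2, and 0 as lower, against 6.2% and 3.87% of all genes. DESeq2, which the study itself used, called rrf-2 as higher and 0 of the 10 as lower, against 2.49% and 0.821% of 16562 genes. In what follows, "rose" refers to genes past the threshold of DESeq2. With 2 libraries per genotype that call is the less strict of the pair. On simulated counts, a larger share of calls than the threshold allows fell on unchanged genes in both tools, and this share was larger in DESeq2. Those counts were drawn with edgeR's estimates of spread, so they cannot rank the tools on the real counts. Of the 95% intervals of the edgeR fold changes, 9 of 10 spanned no change.

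**Figure D1:**
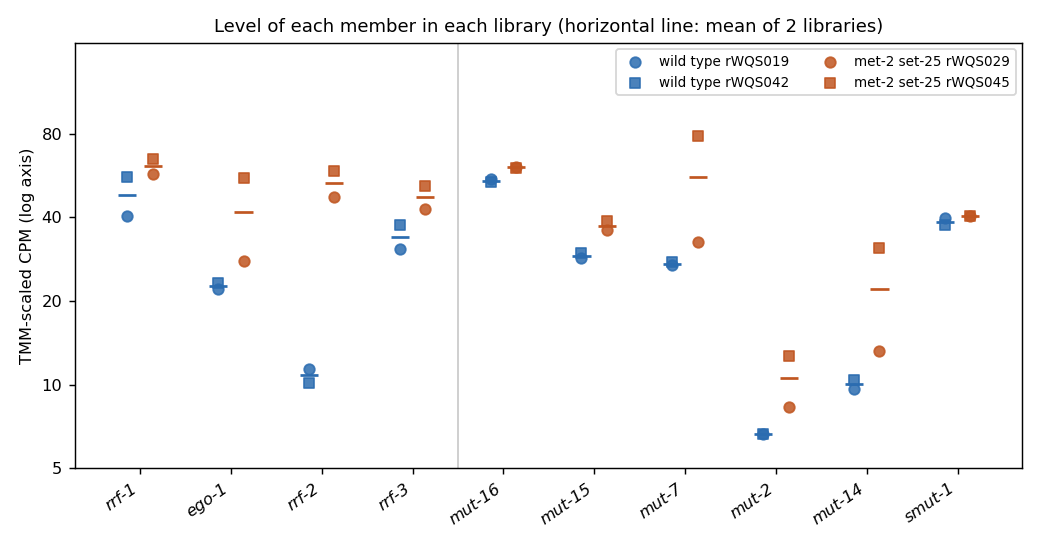
TMM-scaled CPM (log axis) of each gene in the 4 libraries, RdRP genes on the left and mutator genes on the right, with a horizontal line at the mean of 2 libraries. The mutant libraries lie far apart for ego-1 (27.8 and 55.5 CPM), mut-7 (32.7 and 78.6) and mut-14 (13.2 and 30.96), and close together above wild type for rrf-2 (47.4 and 58.8).

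rrf-2 (chromosome I, 12098664 to 12106112 in WBcel235, WBGene00004509) is the RdRP gene with the least defined function in RNAi. Wild type gave 262 counts in rWQS019 and 580 in rWQS042, and met-2 set-25 gave 1868 in rWQS029 and 2624 in rWQS045. That corresponds to 11.4 and 10.2 CPM in wild type, against 47.4 and 58.8 CPM in the mutant. Both mutant libraries were thus far above both wild type libraries, and the libraries of each genotype were within 1.24-fold of each other. rrf-2 rose 4.93-fold by the edgeR estimate. In DESeq2 its log2 fold change was 2.32 with an SE of 0.366, at an adjusted p of 5.69e-08. The edgeR adjusted p was 0.0977, and the 95% interval of the edgeR log2 fold change ran from 1.64 to 2.96. The DESeq2 call was lost without rWQS042 (adjusted p = 0.0613) and held without rWQS019 (0.0482), rWQS029 or rWQS045, while the DESeq2 log2 fold change stayed between 2.13 and 2.48 when any library was left out. No gene of the WBcel235 annotation overlaps rrf-2.

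rrf-1 and ego-1 lie in tandem on the minus strand of chromosome I, 563 bp apart. RRF-1 is the RdRP of RNAi in somatic tissue and also acts in the germline, and EGO-1 is the germline RdRP that fertility requires. rrf-1 (7643431 to 7649777 in WBcel235, WBGene00004508) was at 40.4 and 55.6 CPM in wild type, against 57.2 and 64.7 CPM in the mutant. The higher wild type library and the lower mutant library nearly met, and the wild type libraries were 1.38-fold apart. The edgeR log2 fold change of rrf-1 was 0.34, with a 95% interval from -0.33 to 1.02 (edgeR adjusted p = 0.697, DESeq2 adjusted p = 0.919).

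ego-1 (7650341 to 7656338, WBGene00001214) was at 22.01 and 23.3 CPM in wild type, at 27.8 CPM in rWQS029 and at 55.5 CPM in rWQS045. The wild type libraries were nearly equal, and the mutant libraries were 1.999-fold apart. edgeR gave a log2 fold change of 0.88, with an interval from -0.12 to 1.88 (edgeR adjusted p = 0.549, DESeq2 adjusted p = 0.54). Without rWQS045 it was 0.29, and without rWQS029 it was 1.29, with a DESeq2 adjusted p of 0.013. Per library, the level of ego-1 per kilobase was 0.518 and 0.398 of that of rrf-1 in wild type, and 0.461 and 0.815 in rWQS029 and rWQS045. The ratio of these tandem genes therefore overlapped between the genotypes, with rWQS045 above the other libraries.

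RRF-3 works with Dicer and the ERI complex to make primary endogenous small interfering RNAs, and its loss makes worms hypersensitive to RNAi. rrf-3 (chromosome II, 8162465 to 8168651, WBGene00004510) was at 30.6 and 37.5 CPM in wild type, against 43.0 and 51.7 CPM in the mutant. The genotypes did not overlap, and the libraries of each genotype were about as far apart (1.22-fold in wild type and 1.20-fold in the mutant). Its log2 fold change in edgeR was 0.47, from -0.16 to 1.11 (edgeR adjusted p = 0.597, DESeq2 adjusted p = 0.808). rrf-3 shares 37 exonic bases with T05C12.11 on the opposite strand, 0.669% of its exon length, and T05C12.11 was at no more than 5.09 CPM in any library.

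**Figure D2:**
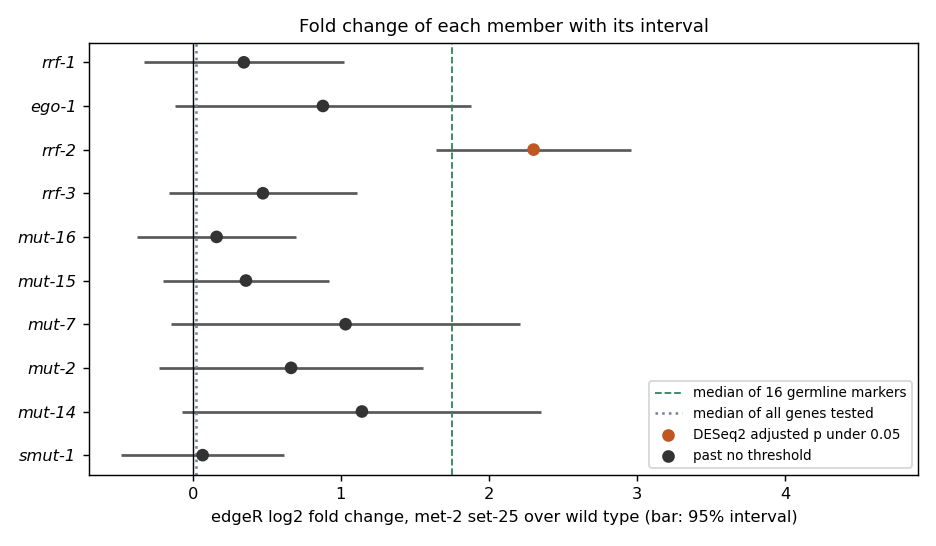
edgeR log2 fold change of each gene, met-2 set-25 over wild type, with its 95% interval (x axis), and the medians of 16 germline markers (1.75) and of all genes tested (0.02) as vertical lines. The interval of rrf-2 starts at 1.64 and those of the other 9 genes include 0.

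rrf-2 moved from the lowest of the 4 RdRP genes in wild type to a level close to rrf-1 in the mutant. Divided by exon length (RPKM, the CPM per kilobase of exon), wild type levels were 9.55 ± 2.15 for rrf-1, 6.16 ± 0.881 for rrf-3, 4.28 ± 0.17 for ego-1 and 2.22 ± 0.18 for rrf-2 (SD, n = 2 libraries). Mutant levels were 12.13 ± 1.06 RPKM for rrf-1, 10.9 ± 1.67 for rrf-2, 8.55 ± 1.11 for rrf-3 and 7.87 ± 3.71 for ego-1. In the mutant the ranges of rrf-1 and rrf-2 overlapped, as did those of rrf-3 and ego-1. The RPKM of rrf-2 was 0.292 and 0.189 of that of rrf-1 in wild type and 0.856 and 0.94 in rWQS029 and rWQS045. Against ego-1 it was 0.564 and 0.475 in wild type and 1.86 and 1.15 in the mutant. Both ratios were higher in both mutant libraries than in both wild type libraries. The lower bound of the edgeR interval for rrf-2 was above the upper bounds for rrf-1 and rrf-3 and below that for ego-1. The 4 genes are paralogs, and how reads shared between similar copies were counted is not given in the sources used here.

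Among the mutator genes, smut-1, mut-16 and mut-15 had the smallest fold changes. MUT-16 is the glutamine- and asparagine-rich protein that nucleates Mutator foci. mut-16 (chromosome I, 10080159 to 10085765, WBGene00003508) was at 55.03 and 53.4 CPM in wild type, against 60.8 and 60.4 CPM in the mutant. These 4 values lie within a narrow band, with the mutant pair just above the wild type pair. The edgeR log2 fold change was 0.16, and its interval from -0.38 to 0.70 leaves room for a change in either direction (edgeR adjusted p = 0.822, DESeq2 adjusted p = 0.973). MUT-15 is another component of the foci that RNAi and transposon silencing require. mut-15 (chromosome V, 15002543 to 15005067, WBGene00011323) was at 28.4 and 29.8 CPM in wild type, against 35.9 and 38.7 CPM in the mutant. The libraries of each genotype were within 1.08-fold of each other and the genotypes were apart. The edgeR log2 fold change of mut-15 was 0.36, from -0.20 to 0.92 (edgeR adjusted p = 0.639, DESeq2 adjusted p = 0.88).

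rWQS045 was the highest library for 9 of the 10 genes, all but mut-16, but its distance from rWQS029 differed between them. mut-7, mut-14, mut-2 and ego-1 were the 4 of the 10 genes with over 1.5-fold between the mutant libraries, against 0 between the wild type libraries. MUT-7 carries a domain of the RNase D type of exoribonucleases. mut-7 (chromosome III, 9539031 to 9542380, WBGene00003504) was at 26.8 and 27.6 CPM in wild type, at 32.7 CPM in rWQS029 and at 78.6 CPM in rWQS045. Its 2 mutant libraries were thus 2.41-fold apart, and its 2 wild type libraries 1.03-fold. edgeR put the log2 fold change at 1.03, from -0.15 to 2.21 (edgeR adjusted p = 0.55, DESeq2 adjusted p = 0.48). Without rWQS045 it was 0.26 and without rWQS029 it was 1.53, with a DESeq2 adjusted p of 0.00142.

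MUT-14 and SMUT-1 are paralogous DEAD-box RNA helicases that act redundantly in the germline. mut-14 (chromosome V, 5658713 to 5660704, WBGene00003507) was at 9.66 and 10.4 CPM in wild type, at 13.2 CPM in rWQS029 and at 30.96 CPM in rWQS045. Again the mutant libraries were far apart (2.34-fold). The edgeR log2 fold change of mut-14 was 1.14, from -0.07 to 2.35 (edgeR adjusted p = 0.522, DESeq2 adjusted p = 0.373). Without rWQS045 it was 0.40 and without rWQS029 it was 1.62, with a DESeq2 adjusted p of 0.00246.

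smut-1 (chromosome V, 6097105 to 6099083, WBGene00021391) was nearly level, at 39.8 and 37.4 CPM in wild type, against 40.3 and 40.5 CPM in the mutant. The gap between the genotypes was smaller than that between the wild type libraries. Its log2 fold change in edgeR was 0.07, from -0.48 to 0.61 (edgeR adjusted p = 0.931, DESeq2 adjusted p = 0.988). smut-1 shares 92 exonic bases, 5.24% of its exon length, with the calreticulin gene crt-1 on the opposite strand. crt-1 was at 2637 to 3002 CPM across the libraries, with an edgeR log2 fold change of 0.01, and the share of smut-1 counts that came from it was not tested. The RPKM of smut-1 was 4.11 and 3.60 times that of mut-14 in wild type, 3.04 times in rWQS029 and 1.30 times in rWQS045. The helicase pair therefore came closer in level in the mutant, mainly in rWQS045. Reads that the paralogs share could have been split between them or dropped.

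MUT-2 (RDE-3) is the nucleotidyltransferase that adds poly(UG) tails to targeted transcripts, which RdRPs then use as templates. mut-2 (chromosome I, 6356614 to 6358411, WBGene00003499) had the lowest counts of the 10 genes, 153 and 378 in wild type and 328 and 567 in the mutant. That corresponds to 6.66 and 6.62 CPM in wild type, 8.32 CPM in rWQS029 and, highest, 12.7 CPM in rWQS045. The wild type libraries were equal to within 1.01-fold and the mutant libraries were 1.53-fold apart. The edgeR log2 fold change was 0.66, from -0.23 to 1.56 (edgeR adjusted p = 0.597, DESeq2 adjusted p = 0.689). Without rWQS045 it was 0.32 and without rWQS029 it was 0.93. mut-2 shares 67 exonic bases, 4.3% of its exon length, with the protease gene bli-4 on the opposite strand. bli-4 was at 234 to 269 CPM, with an edgeR log2 fold change of -0.01. The share of mut-2 counts that came from bli-4 was not tested.

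**Figure D3:**
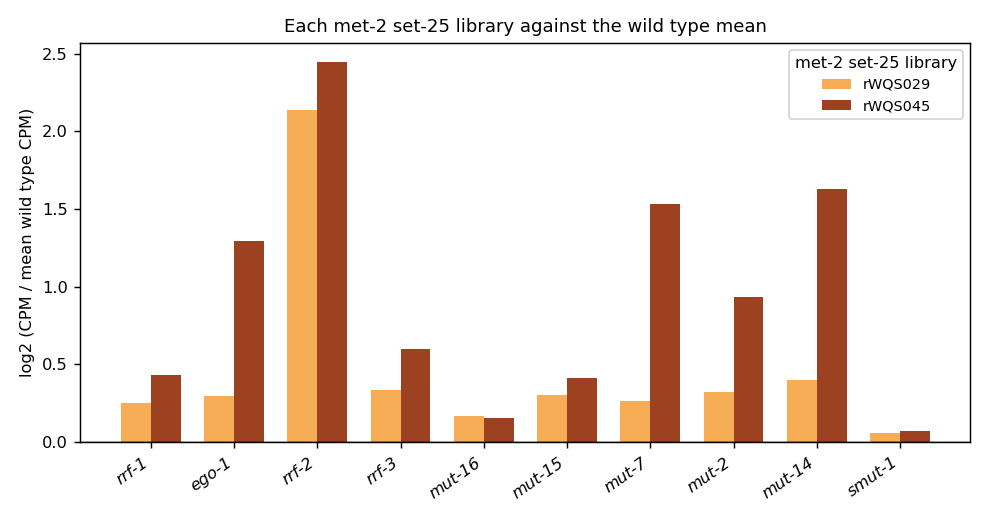
Log2 ratio of the CPM in each met-2 set-25 library to the mean of the 2 wild type libraries (y axis), for each gene. rrf-2 is high in both mutant libraries (2.14 and 2.45), whereas ego-1, mut-7 and mut-14 are at 0.29, 0.26 and 0.40 in rWQS029 and at 1.29, 1.53 and 1.63 in rWQS045.

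The summed level of the 4 RdRP genes was 104 and 127 CPM in wild type and 175 and 231 CPM in rWQS029 and rWQS045. The means were 115.5 ± 15.7 and 203 ± 39.2 CPM (SD, n = 2 libraries), a ratio of 1.76. The 6 mutator genes summed to 166 and 165 CPM in wild type, against 191 and 262 CPM in the mutant, a ratio of means of 1.37. Both sums were higher in both mutant libraries, and the mutator sum was above wild type mostly in rWQS045.

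Ordered by RPKM in wild type, smut-1 (21.99 ± 0.973) was the highest of the 10 genes, followed by mut-16 (15.9 ± 0.329), mut-15 (14.2 ± 0.46), rrf-1, mut-7 (9.12 ± 0.175), rrf-3, mut-14 (5.72 ± 0.282), ego-1, mut-2 (4.26 ± 0.0149) and rrf-2. The neighbours rrf-1 and mut-7, rrf-3 and mut-14, and ego-1 and mut-2 overlapped between libraries, and the other neighbours were apart. In wild type, rrf-2 was at the 22.2 percentile and smut-1 at the 68.5 percentile of 14395 protein-coding genes tested. In the mutant, rrf-2 was at the 49.4 percentile and mut-7 at the 63.2 percentile. Mutant RPKM ran from 23.02 ± 0.106 for smut-1 and 18.6 ± 10.9 for mut-7 down to 6.753 ± 1.995 for mut-2, and all neighbours in that order overlapped except rrf-2 and rrf-3.

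Germline markers were higher in the mutant as well. Among all genes tested, 22.1% had ranges that did not overlap and were higher, and DESeq2 called 2.49% as higher. Of the 16 germline markers, all 16 had ranges that did not overlap and were higher in the mutant, and 9 rose in DESeq2 (2 without rWQS019, 2 without rWQS042, 6 without rWQS045 and 12 without rWQS029). Their median edgeR log2 fold change was 1.75, and 0.97 without rWQS045. Their level in rWQS045 was higher than in rWQS029 by a median of 0.89 on the log2 scale, and the corresponding difference was 0.998 for ego-1, 1.26 for mut-7, 1.23 for mut-14 and 0.61 for mut-2. For rrf-2 it was 0.31, for rrf-3 0.27, for rrf-1 0.18, for mut-15 0.11, for smut-1 0.01 and for mut-16 -0.01. Single germline markers ran from 0.30 for gls-1 to 1.41 for fbf-2, with him-3 at 0.43, so the value of rrf-2 lay within their range. For example, the P granule helicase gene glh-1 was at 204 and 208 CPM in wild type, then 482 CPM (rWQS029) and 1172 CPM (rWQS045). The part of germline content or stage in the levels of the 10 genes, rrf-2 included, was not tested. The list was chosen with earlier results of these data known.

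Genes that work beside the RdRPs and the Mutator complex were mostly higher too. Of 17 such partners, 16 had an edgeR log2 fold change above 0, with a median of 0.53 (0.23 without rWQS045, 0.35 without rWQS019 and 0.76 without rWQS029), and 3 rose in DESeq2, 0 fell and 14 did not pass (1 rose without rWQS019 or rWQS042, 2 without rWQS045 and 5 without rWQS029). For all genes tested, 8239 of 15978 were above 0, and DESeq2 called 2.49% as higher. lotr-1, which encodes a LOTR and Tudor domain protein of germ granules, rose from 16.6 and 19.3 CPM in wild type to 204 and 273 CPM in the mutant (DESeq2 log2 fold change 3.74, SE 0.379, adjusted p = 9.57e-20). It passed DESeq2 also when any library was left out. simr-1, a Tudor domain gene that promotes small RNA production, rose from 9.83 and 9.20 CPM to 24.2 and 69.3 CPM (DESeq2 adjusted p = 0.00525). Leaving out rWQS019 (0.205) or rWQS042 (0.162) ended that call. nyn-1, a gene of NYN-domain ribonucleases, rose from 7.92 and 7.03 CPM to 16.4 and 22.3 CPM (DESeq2 adjusted p = 0.0204), and it did not pass without rWQS019 (0.9999), rWQS042 (0.788) or rWQS045 (0.182). The partners that act in the same complexes as the RdRPs, drh-3 and ekl-1, did not pass and are named after their values were seen. drh-3 was at 39.98 and 51.3 CPM in wild type, against 48.7 and 82.7 CPM in the mutant, and ekl-1 was at 36.2 and 48.9 CPM and at 53.9 and 73.5 CPM.

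The Argonautes that bind secondary small RNAs had a larger median edgeR log2 fold change than the 10 RdRP and mutator genes (0.57). Of 14 on the list, 12 were matched by symbol (wago-2 and wago-11 were not) and 11 tested, and 5 rose in DESeq2, 0 fell and 6 did not pass, with a median edgeR log2 fold change of 1.47 (0.61 without rWQS045). The count was 2 without rWQS019, 3 without rWQS042, 5 without rWQS045 and 8 without rWQS029. DESeq2 called 2.49% of all genes as higher and 0.821% as lower. wago-4, an Argonaute of inherited silencing, rose from 6.22 and 12.7 CPM in wild type to 103 and 249.6 CPM in the mutant (DESeq2 adjusted p = 1.81e-09). hrde-1, the nuclear Argonaute of inherited silencing, rose from 49.6 and 64.4 CPM to 315 and 547 CPM (DESeq2 adjusted p = 3.29e-08). Both passed DESeq2 also when any library was left out. ppw-1, required for RNAi in the germline, rose from 12.7 and 14.7 CPM to 39.4 and 75.7 CPM (DESeq2 adjusted p = 0.00105, 0.352 without rWQS019 and 0.108 without rWQS042). sago-2 rose from 0.653 and 1.94 CPM to 8.72 and 14.6 CPM (DESeq2 adjusted p = 0.000138, 0.0673 without rWQS019). vsra-1 rose from 20.97 and 24.8 CPM to 62.6 and 70.5 CPM (DESeq2 adjusted p = 0.000832, 0.972 without rWQS019 and 0.296 without rWQS042). The difference between the Argonautes and the 10 genes was not tested.

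Of 14 genes of the primary small RNA pathways, 13 were tested, and prg-1 alone rose in DESeq2, from 57.5 and 62.8 CPM to 304 and 627 CPM (DESeq2 adjusted p = 2.97e-07). It encodes the Argonaute of the piRNAs and shares 12 exonic bases with D2030.12 on the opposite strand. The other 12 did not pass, and the median edgeR log2 fold change of this list was 0.33 (0.21 without rWQS045 and 0.59 without rWQS029). Over all genes, DESeq2 called 2.49% as higher.

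**Figure D4:**
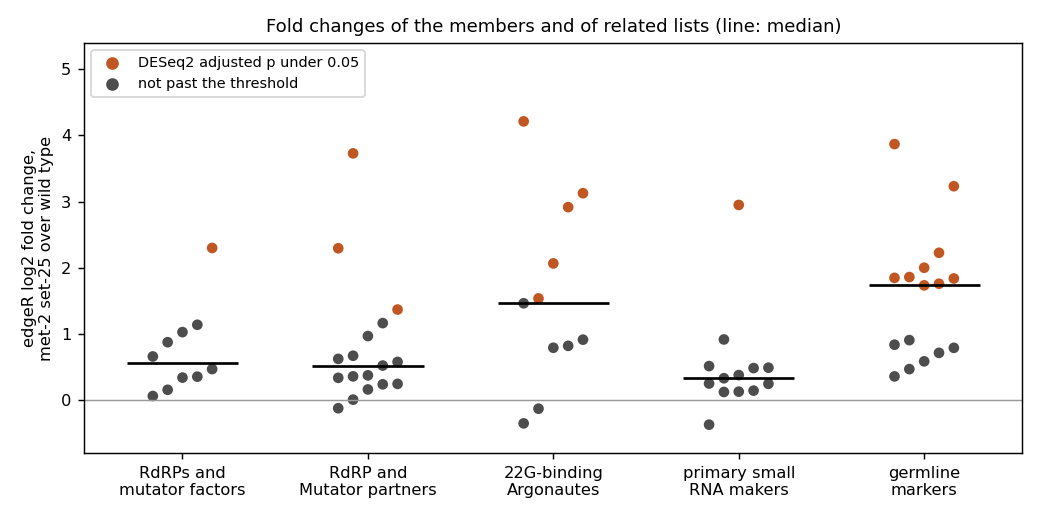
edgeR log2 fold changes (y axis), 1 point per tested gene, of the RdRP and mutator genes, their partners, the Argonautes that bind secondary small RNAs, the makers of primary small RNAs and the germline markers, with lines at the medians (0.57, 0.53, 1.47, 0.33 and 1.75). Coloured points passed DESeq2 at an adjusted p under 0.05, among them rrf-2 as 1 of the 10 RdRP and mutator genes.

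The genes whose pattern over the 4 libraries was most like that of rrf-2, whatever their level, were gln-6, a glutamine synthetase gene, and the protein-coding genes W06B4.1 and C10A4.7. Likeness was the Euclidean distance of log2 CPM centred on each gene's mean, which was 0.153 for gln-6, 0.171 for W06B4.1 and 0.176 for C10A4.7. gln-6 was at 5.05 and 4.75 CPM in wild type, against 23.97 and 29.6 CPM in the mutant. W06B4.1 was at 1.48 and 1.37 CPM, then 5.68 and 8.23 CPM. C10A4.7 was near the floor in wild type, at 0.131 and 0.14 CPM (3 and 8 counts). It was at 0.735 and 0.919 CPM in the mutant and did not pass DESeq2 (adjusted p = 0.094). Of the 15978 genes tested, 86 lay within a distance of 0.5 of rrf-2.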

How the data were processed

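The values deposited by the authors are unnormalized counts, 1 column per library over 46748 genes. Per the study's methods, libraries were made with the TruSeq RNA kit, which does not mark strand, and reads were aligned with STAR to ce10 with the WS235 gene models. For counting, HTSeq is named there and featureCounts in the submitters' processing notes. Versions and the treatment of shared reads are not given in the sources used here. Columns carry the genotype but no replicate number, and 0 columns were left out.

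Counts were fitted over all genes with edgeR 4.0.16 in R 4.3.3 (filterByExpr, TMM factors, quasi-likelihood test, genotype only, Benjamini-Hochberg adjustment, threshold 0.05) and with DESeq2 1.42.0 with default filtering. On simulated counts with known changes, both tools gave most changed genes the right direction, scored whether or not they were called. A larger share of calls than the threshold allows fell on unchanged genes, and this share was larger in DESeq2 than in edgeR. The simulated counts were drawn with edgeR's estimates of spread for genes past its filter, so they cannot rank the tools on the real counts. CPM are counts per 1000000 on TMM-scaled library sizes. RPKM divides CPM by the merged exon length of Ensembl 115 (WBcel235). The printed positions are those of WBcel235, not of ce10. The counts were made with the WS235 gene models on ce10, so RPKM, percentiles and ratios between genes combine both annotations. The effect of this was not tested. Of the genes, 46449 matched the Ensembl annotation and 299 did not. Distances used log2 CPM with a prior count of 2. The 95% intervals of edgeR fold changes were derived from its F statistic, and cover the spread between libraries only. A count of 0 allows up to 0.0527 to 0.131 CPM, taken as 3 counts of the total, which covers counting error only.

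All 10 genes are named. Of each pathway list, the genes past DESeq2 are named, and for rrf-2, the gene with the smallest DESeq2 p, the 3 nearest genes. The genes, lists and this rule were chosen with earlier results of these data known. Alternatives were other scaling factors, other filters, limma voom 3.58.1, DESeq2 settings and each library left out in turn. Scalings for the overlap of ranges were added after seeing the data. No sequences were used here.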

Additional observations from a re-analysis of the deposited data

How the results depend on the processing

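The log2 fold change of each of the 10 genes stayed above 0 in all 11 alternatives (RLE, upper-quartile and no scaling factors, no filter, a mean of at least 5 CPM, limma voom, DESeq2 and each library left out). For rrf-2 it ran from 2.14 to 2.45, for mut-7 from 0.26 to 1.53 and for smut-1 from 0.00 to 0.11. Of the 110 values, 107 stayed on the same side of the threshold and 3 became calls, all of rrf-2 (DESeq2, edgeR with no filter with an adjusted p of 1.27e-07, and edgeR without rWQS029 with 0.0427). edgeR's adjusted p for rrf-2 was otherwise 0.0531 to 0.745, and that of limma voom was 0.116. The number of the 10 genes called as higher was 1 in DESeq2, 1 in edgeR with no filter and 0 to 1 in edgeR with a library left out, against 0 in edgeR. In DESeq2 it ran from 0 without rWQS042 to 4 without rWQS029 (rrf-2, ego-1, mut-7 and mut-14). Over all genes, edgeR called 0 as higher and 0 as lower, against 412 and 136 in DESeq2, 813 and 410 in edgeR with no filter, 0 to 170 and 0 to 58 in edgeR with a library left out, and 140 to 802 and 12 to 622 in DESeq2 with a library left out. DESeq2 called 62 as lower at an adjusted p under 0.01. Where a genotype was left with 1 library, that library was assumed to vary like the other genotype. The causes of these differences were not tested. A fit with a library left out also has fewer degrees of freedom. No paired analysis was possible because the columns carry no replicate numbers.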
